A study of Cunninghamia lanceolata with 18 samples.

Results

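Bud genes above upper phloem are the 100 genes of Chinese fir (*Cunninghamia lanceolata*) whose lowest level in any bud library stood furthest above their highest level in any upper phloem library. RNA was sequenced from the lateral bud (LB), the apical bud (AB) and the upper phloem next to the apical bud (UP) of clone C1, which has the longer internodes, and clone C11, which has the shorter ones. Each tissue of each clone had 3 libraries that the study calls biological replicates, so that 6 libraries of LB, 6 of AB and 6 of UP gave 18 in all, with no treatment. Each clone is 1 genotype and was collected on its own day, so genotype and day of collection cannot be told apart. The deposited values are reads counted per gene, with 24766529 to 32005160 counts in a library. They are given here as CPM, the counts of a gene divided by the counts of its library and multiplied by 1e+06. CPM does not take gene length into account, so levels are compared between libraries and not between genes.

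The members were chosen by their values. The score of a gene was the lowest CPM of its 12 bud libraries plus 1, divided by the highest CPM of its 6 UP libraries plus 1. From the 46723 genes of the table, the 32 genes that the study lists under cutin, suberine and wax biosynthesis and 11 further genes were set aside, and the 100 highest scores of the other 46680 were taken. Of the 43 genes set aside, 19 had a score at least as high as the lowest member, 14 of them cutin, suberine and wax genes. A total of 259 of the scored genes lay above all UP libraries in all bud libraries, so the 100 are those with the widest gap. The contrast of buds with UP chose the members and is described here without a test. Scores ran from 8.16 for NewGene_14114 to 1.274 for Cula0012770 with a median of 1.675, and 26 members scored at least 2.

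The buds of a conifer shoot hold the meristem, young leaves and an epidermis that is still being built, whereas phloem carries sugars and signals along the stem. The epidermis of a growing shoot covers itself with a cuticle of cutin and wax, both made from long fatty acids that are finished and exported by epidermal cells. Sphingolipids, which are part of the plasma membrane, are also built with very long-chain fatty acids. Which cells of a bud held the RNA of the members was not measured, and in whole tissue fewer cells of a type and less RNA per cell cannot be told apart. The sources pair no gene identifier with a marker of bud or phloem, so the tissue labels were not checked against markers.

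**Figure D1:**
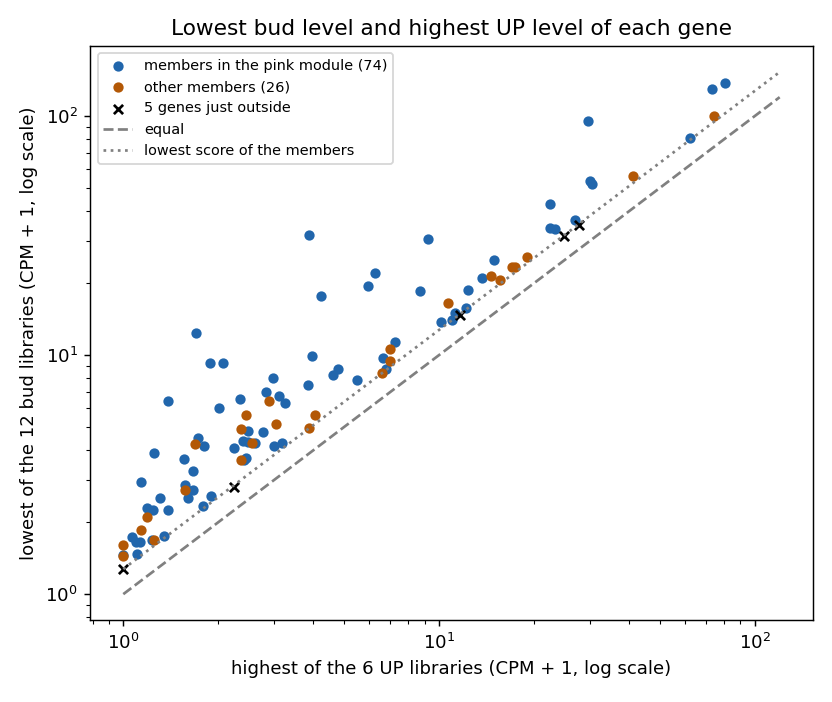
Highest CPM + 1 among the 6 UP libraries (horizontal, log scale) against lowest CPM + 1 among the 12 bud libraries (vertical, log scale), 1 point a gene. All 100 members lie above the dashed line of equality. The 5 crosses just outside lie on the dotted line of the lowest member score, 1.274, within the width of the symbols.

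The mean of a member over the 12 bud libraries ran from 1.19 to 340 CPM with a median of 18.9, and its mean over the 6 UP libraries from 0 to 42.3 CPM with a median of 0.930. With the counts of all libraries of a tissue pooled, the buds exceeded UP by 3.34 to 313.7 times with a median of 14.9, over the 96 members that had more than 3 counts in UP. The excess was over 10-fold for 68 of these members and under 5-fold for 6. For another 3 members no read was counted in any UP library, and 1 member had 3 counts there. The members together took 0.254% to 0.562% of the counts of an LB library and 0.180% to 0.684% of an AB library, against 0.00739% to 0.0670% of a UP library.

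The member with the highest score, NewGene_14114, carries no name or pathway in the sources. It had 56.9, 91.9 and 111 CPM in C1 LB and 85.7, 188 and 42.2 CPM in C11 LB. In AB it had 187, 55.4 and 30.7 CPM in C1 and 63.6, 42.7 and 90.9 CPM in C11, against 2.89, 1.05 and 1.97 CPM in C1 UP and 0.360, 2.70 and 0.149 CPM in C11 UP. The bud libraries thus differed from each other by several times while staying clear of UP, as the rule requires. The pooled excess was 57.7 times (95% interval 51.2 to 65.2). This and all such intervals here cover counting error only. They leave out the spread between libraries and the choice of the members by this same contrast, so they are no test of it.

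Cula0001946, which the study lists under glycerolipid metabolism, had the largest pooled excess among the members with over 3 counts in UP, at 313.7 times (232 to 435). It had 103.5, 152 and 121 CPM in C1 LB, 35.2, 117 and 18.9 CPM in C11 LB, 160, 62.3 and 11.4 CPM in C1 AB and 21.7, 18.7 and 44.1 CPM in C11 AB. In UP it had 0.698, 0.190 and 0.276 CPM in C1, and in C11 0.208 CPM in replicate 2 and no count in the other libraries.

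**Figure D2:**
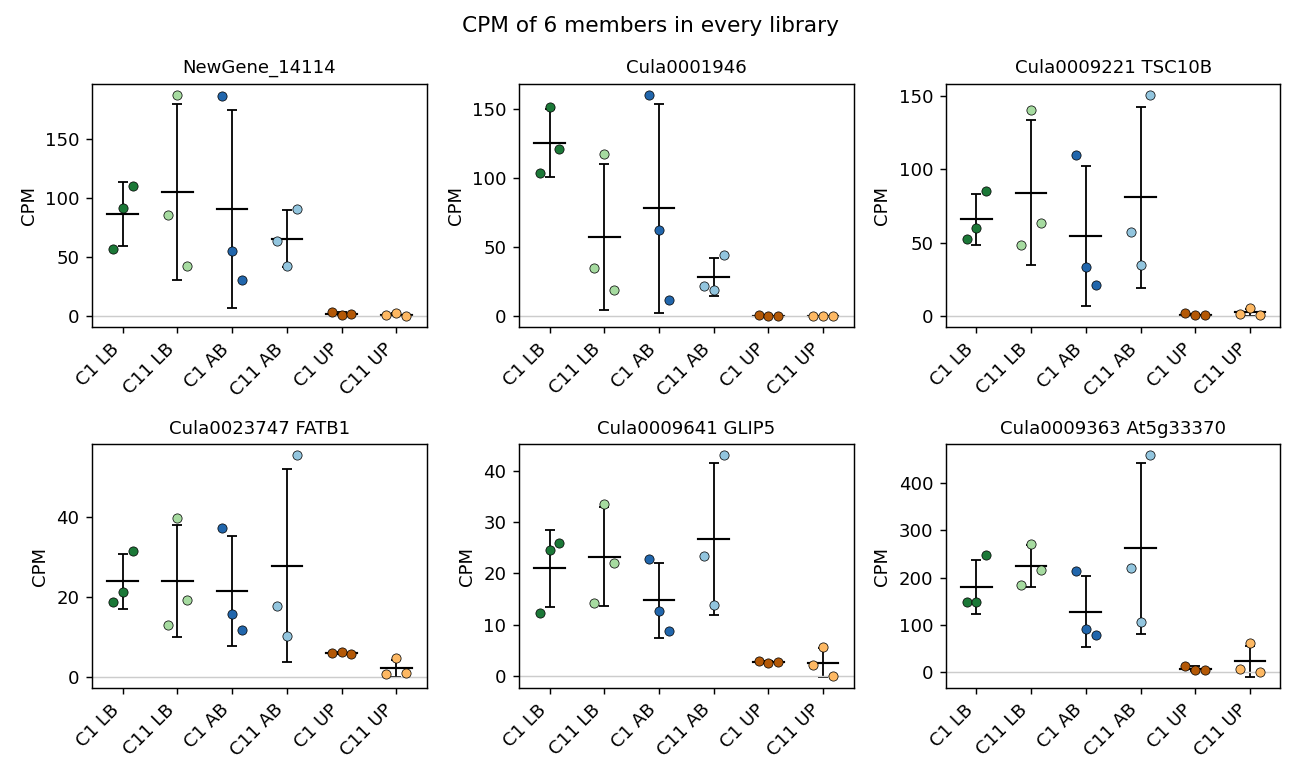
CPM (vertical, linear scale from 0) of 6 members in the 18 libraries, 1 point a library, with horizontal bars for the mean and error bars for the SD of the 3 libraries of each tissue and clone. In every panel the lowest bud library lies above the highest UP library, and LB and AB of a clone overlap, as do C1 and C11 within each bud.

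The further members among the 15 highest scores were NewGene_6346, Cula0002821, Cula0028164, Cula0035841, Cula0009221, Cula0027000, Cula0032497, NewGene_10206, Cula0016635, Cula0023874, Cula0010232, Cula0028555 and Cula0017699. Their scores lay between 2.59 and 4.89. NewGene_10206 drew the most reads of these, with 94.8 CPM in its lowest bud library, a median of 160 and a highest value of 456, against 0.299, 5.09 and 28.6 CPM in UP. Cula0028164 and Cula0002821 drew fewer, with bud values of 8.24 to 26.8 CPM and 5.42 to 41.2 CPM, against at most 1.07 and 0.381 CPM in UP. Cula0032497 had the smallest pooled excess of the 15, at 11.2 times (10.3 to 12.2).

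Of the 100 members, 31 appear in at least 1 KEGG pathway that the study lists for its pink module, a co-expression module it built on these libraries. The other 69 appear in none, but the lists hold pink module genes only, so the 26 members outside the module could not appear. Of the 981 module genes, 74 are members and 43 were set aside, and no list was tested against that share. Glycerolipid metabolism held 6 members of its 17 listed genes and sphingolipid metabolism 5 of 18, with 5 more of the 18 among the genes set aside. Plant-pathogen interaction held 3 of 27, brassinosteroid biosynthesis 2 of 6, MAPK signaling 2 of 14 and plant hormone signal transduction 2 of 24. Fatty acid elongation held 1 of 15, with 2 set aside, and fatty acid biosynthesis 1 of 10. In all, 74 members belong to the pink module, which holds 2.10% of the table, and 83 of the 159 further genes that lie above all UP libraries do so, or 52.2%. The study formed that module from the levels in the same libraries, so this overlap is not independent evidence.

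In the sphingolipid list, Cula0009221 is the homolog of *TSC10B*, which in *Arabidopsis* encodes the reductase that makes the long-chain base dihydrosphingosine. It had 52.2, 59.9 and 85.5 CPM in C1 LB and 48.3, 141 and 63.5 CPM in C11 LB. In AB it had 110, 33.5 and 21.1 CPM in C1 and 57.0, 34.5 and 151 CPM in C11, against 1.68, 0.412 and 0.552 CPM in C1 UP and 1.18, 5.29 and 0.485 CPM in C11 UP. Its pooled excess in the buds was 45.2 times (40.2 to 51.0), and the highest UP library, C11 replicate 2, held over 4 times the count share of the other C11 UP libraries.

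The other sphingolipid members were Cula0010232, Cula0028555, Cula0017699 and NewGene_11119. Cula0010232 ran from 5.53 to 50.4 CPM in the buds (median 18.3), against 0 to 1.35 CPM in UP, and Cula0028555 from 7.03 to 42.3 CPM (median 18.8), against 0.149 to 1.97 CPM. Cula0017699 ran from 3.48 to 21.8 CPM in the buds, against 0 to 0.726 CPM in UP. NewGene_11119 ran from 0.727 to 9.43 CPM in the buds, against 4 counts in all UP libraries together. Its identifier neighbours that of a gene set aside by the rule. Whether these genes are alike in sequence, and whether reads were split between them, was not examined.

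Among the glycerolipid genes, Cula0009641 is the homolog of *GLIP5* and Cula0009363 of *At5g33370*. Both belong to the GDSL family of lipases and esterases, and *At5g33370* acts in *Arabidopsis* as a cutin synthase. Cula0009641 had 12.4, 24.5 and 25.996 CPM in C1 LB, 14.3, 33.5 and 21.9 CPM in C11 LB, 22.8, 12.7 and 8.76 CPM in C1 AB and 23.4, 13.8 and 42.9 CPM in C11 AB, against 3.01, 2.51 and 2.73 CPM in C1 UP and 2.16, 5.67 and 0.112 CPM in C11 UP. Cula0009363 had 148, 148 and 247 CPM in C1 LB, 185, 272 and 216 CPM in C11 LB, 214, 91.97 and 79.7 CPM in C1 AB and 222, 105 and 458 CPM in C11 AB, against 13.7, 5.55 and 4.002 CPM in C1 UP and 7.95, 61.6 and 0.709 CPM in C11 UP. One library, C11 UP replicate 2, sets the low score of Cula0009363, since the 5 other UP libraries reached at most 13.7 CPM.

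The glycerolipid members without a name lay above UP throughout, as the rule requires of every member. Cula0021373 ran from 42.0 to 155 CPM in the buds, against 0 to 21.5 CPM in UP, Cula0001635 from 23.98 to 97.8 CPM, against 0.821 to 14.0 CPM, and Cula0019366 from 7.71 to 50.8 CPM, against 0.261 to 3.77 CPM. All had pooled excesses between 6.82 and 10.5 times, far under that of Cula0001946. In the fatty acid biosynthesis list, Cula0023747 is the homolog of *FATB1*, a thioesterase that releases saturated fatty acids in the plastid. It had 18.8, 21.2 and 31.6 CPM in C1 LB, 13.0, 39.8 and 19.1 CPM in C11 LB, 37.2, 15.8 and 11.7 CPM in C1 AB and 17.8, 10.3 and 55.4 CPM in C11 AB, against 5.93, 6.25 and 5.73 CPM in C1 UP and 0.818, 4.63 and 0.933 CPM in C11 UP. Its pooled excess, 5.93 times (5.50 to 6.41), was among the smaller ones.

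Cula0016635, the member in the fatty acid elongation list, which also stands in the plant-pathogen list, had 8.68, 23.6 and 17.3 CPM in C1 LB, 2.90, 13.1 and 3.09 CPM in C11 LB, 18.9, 8.10 and 3.76 CPM in C1 AB and 3.62, 4.57 and 8.83 CPM in C11 AB, against 23 counts in all UP libraries together. Cula0000610, the homolog of the GDSL esterase *At1g28570*, ran from 1.74 to 16.7 CPM in the buds (median 7.30), against 0 to 0.657 CPM in UP. Outside the lipid lists, and named here after their values were seen, both brassinosteroid biosynthesis members lay well above UP. Cula0027149 ran from 2.66 to 23.5 CPM in the buds, against 0 to 0.552 CPM in UP, and Cula0031126 from 3.15 to 18.4 CPM, against 0 to 0.795 CPM. The hormone signal members, chosen in the same way, had 1.74 to 35.2 CPM in the buds for Cula0017385, against at most 0.588 CPM in UP, and 20.1 to 105 CPM for Cula0024350, against at most 12.7 CPM.

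Most other members have an identifier and no name. By identifier, 85 members come from the reference annotation and 15 are NewGene models, whose share of the whole table is 20.3%. The 3 members that drew the most reads, chosen after their values were seen, are Cula0012088, Cula0005692 and Cula0005157, with bud means of 340, 273 and 263 CPM, against UP means of 37.0, 42.3 and 38.0 CPM. At the other end, Cula0009735, Cula0023240 and NewGene_15379 had no count in UP and 583, 478 and 409 counts in the 12 bud libraries together. Set against a floor of 3 counts over the 6 UP libraries, they were at least 101-fold, 82.8-fold and 70.8-fold higher in the buds. Cula0012843, with 3 counts in UP and 1257 in the buds, had a ratio of 218 with a counting interval of 74.3 to 1057.

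**Figure D3:**
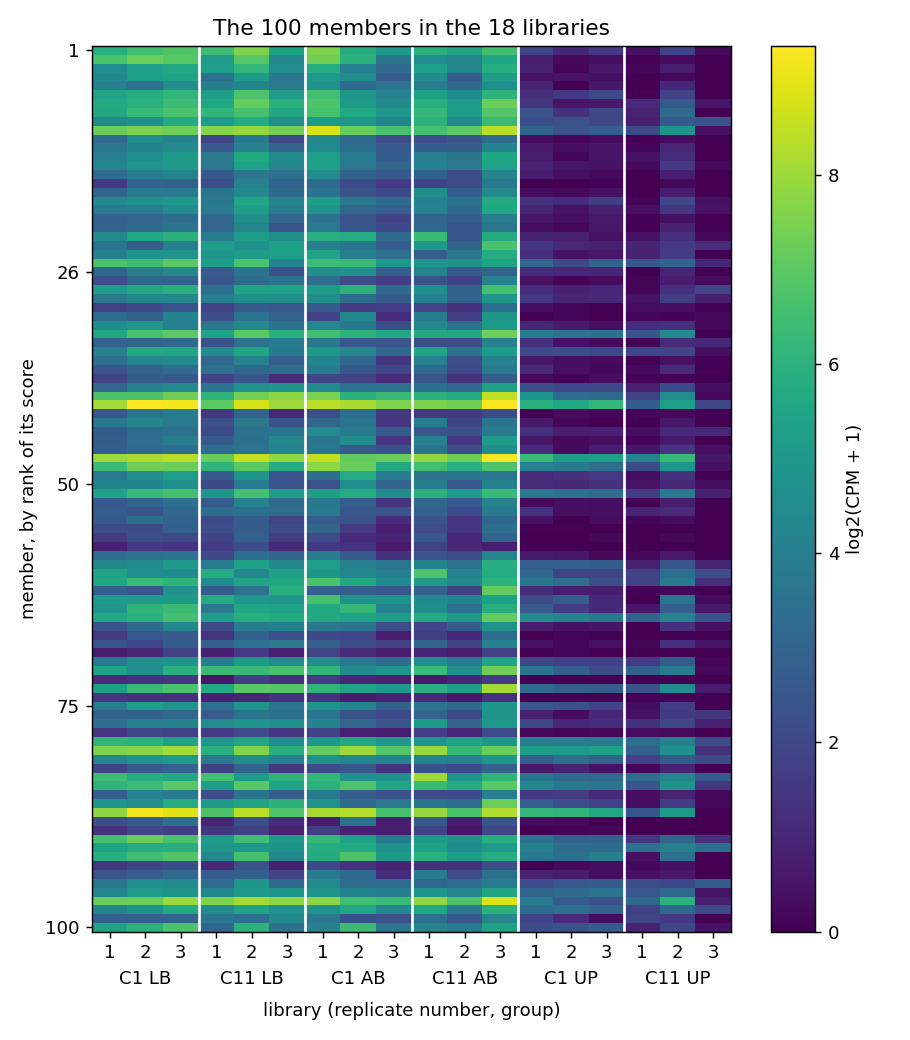
Level of each member (rows, by rank of the score) in each of the 18 libraries (columns, with the replicate number and group), as log2(CPM + 1) on a colour scale from 0. The UP columns are darker than the bud columns in every row, and C11 AB replicate 3 is the brightest bud column for 40 of the 100 members.

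At the edge of the rule the gap was small. The 5 lowest members, Cula0035428, Cula0009363, Cula0003025, Cula0035821 and Cula0012770, scored 1.292 to 1.274, and the 5 genes just outside, Cula0035931, Cula0025166, Cula0000889, Cula0007389 and NewGene_8631, scored 1.273 to 1.255. Cula0012770 had 7.39 CPM in its lowest bud library, against 5.59 CPM in its highest UP library, and Cula0025166 had 30.5 CPM, against 23.9 CPM. Cula0035931 had 0.273 CPM in its lowest bud library and no count in UP. Single libraries decide where a gene falls. The lowest bud library was C1 AB replicate 3 for 49 members and C11 AB replicate 2 for 22, and the highest UP library was C11 replicate 2 for 45 and C1 replicate 1 for 30. Of the members, 78 remained when C11 UP replicate 2 was left out, 81 without C11 AB replicate 2, 82 without C1 AB replicate 3 and 83 without C1 UP replicate 1. With the mean of the bud libraries over the mean of the UP libraries in place of the extremes, 49 remained.

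Within the buds most members moved together in some libraries and were split in others. The ratio of the highest to the lowest bud library was 6.41 at the median member, 2.48 for Cula0026169 and 53.0 for Cula0012660, the narrowest and the widest range, and it exceeded 10 for 20 members. In C1 AB replicate 3 and in C11 AB replicate 2, 99 of 100 members lay below their own mean of log2(CPM + 1) over the 12 bud libraries, with median deviations of -0.99 and -0.85. Above their mean lay 92 members in C11 AB replicate 3 (median deviation 0.82), 92 in C1 LB replicate 3 (0.59) and 94 in C11 LB replicate 2 (0.57). The members were split in C11 AB replicate 1, with 53 below and 47 above their mean, and in C11 LB replicate 3, with 61 below and 39 above. In the remaining bud libraries 66 (C1 AB replicate 2) to 79 (C1 AB replicate 1) lay on 1 side. Over the 21585 genes with a mean bud CPM of at least 1, the median deviation stayed between -0.16 and 0.10 in the same 12 libraries. The 32 cutin, suberine and wax genes that the rule set aside had medians of 0.93 in C11 AB replicate 3, 0.71 in C11 LB replicate 2, -0.76 in C1 AB replicate 3 and -0.73 in C11 AB replicate 2. The 864 pink module genes that are neither members nor set aside had medians of 0.42 in C11 AB replicate 3 and 0.06 in C11 LB replicate 2. In C1 AB replicate 3 and C11 AB replicate 2 theirs were -0.18 and -0.31. The study built this module on co-expression in these libraries and 74 members belong to it, so any shared movement of the members is not independent of it. These deviations are given without a test, and what sets them was not tested.

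The UP libraries differed among themselves as well. The median deviation of the members from their bud mean was -2.28, -2.63 and -2.67 in C1 UP and -3.16, -2.22 and -3.36 in C11 UP. At 0 counts stood 11, 7 and 10 members in the C1 UP libraries and 22, 8 and 44 in the C11 UP libraries, and none in a bud library, where the lowest count of a member was 13. C11 UP replicate 2 held the highest of the 3 C11 values for 85 of the 92 members with a single highest library in that group.

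**Figure D4:**
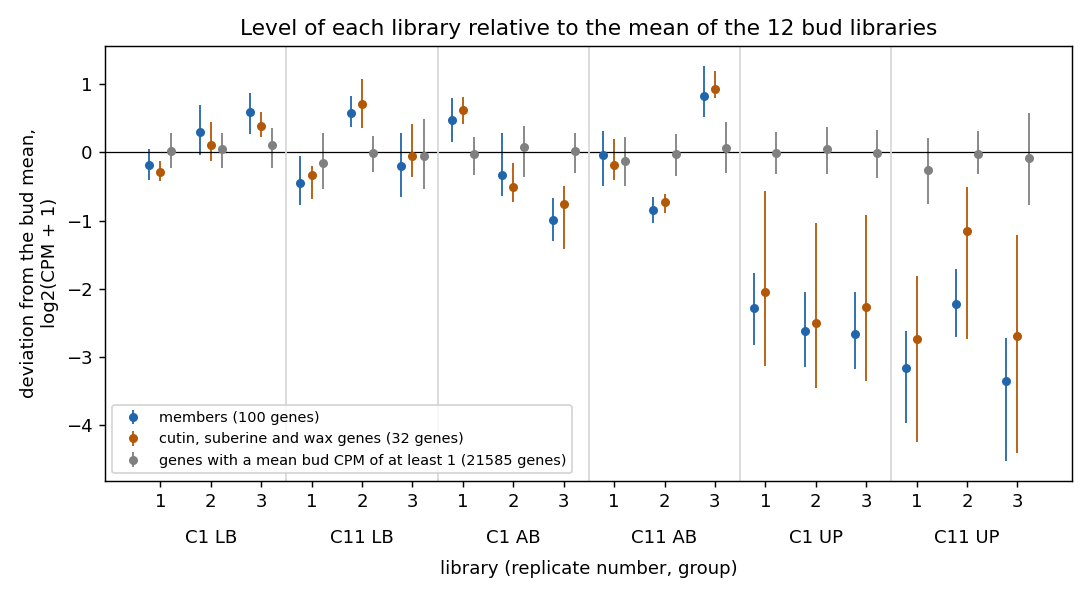
Deviation of each library from a gene's own mean over the 12 bud libraries, in log2(CPM + 1) (vertical), for the 100 members, the 32 cutin, suberine and wax genes and 21585 genes with a mean bud CPM of at least 1, where points are medians over genes and lines run between the quartiles. The members range from -0.99 to 0.82 between bud libraries, and the medians of the 21585 genes stay between -0.16 and 0.10 there.

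The study compared the clones within each tissue with DESeq2. The same groups and thresholds were used here for the members, but with edgeR as the main tool, so its counts do not repeat those of the study. DESeq2 was run as an alternative and called more genes in each tissue. A gene was called when edgeR's quasi-likelihood test, fitted to all genes that passed the filter on low counts, gave a fold change of at least 2 between C1 and C11 and an adjusted p (FDR, Benjamini-Hochberg) under 0.05. The rule takes the lowest bud library and the highest UP library of both clones, so it passes over genes that are low in the buds of either clone or high in the UP of either clone, and the clone comparison of the members is not free of it. A small share of called members is therefore given as a count only.

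In LB, 0 of 100 members were called by edgeR, where 4.27% of the 24345 genes tested were. DESeq2 called 4 members, and 3795 of 32988 genes. In edgeR, 11 members stood at an unadjusted p under 0.05, 3 higher and 8 lower in C1, against 20.8% of all genes. Without C11 LB replicate 2 it was 34, with 28 higher and 6 lower in C1, against 31.6% of all genes, and with the replicate number as a block 23, with 14 higher and 9 lower, against 21.2%, so neither the count nor its direction was stable. Without C1 LB replicate 2 it was 5, against 14.1% of all genes, and in the joint fit of all 18 libraries 1, against 23.9%. The median log2 fold change (C1 over C11) of the members was -0.04, against -0.01 over all genes, and it ran from -0.16 to 0.42 when any 1 library was omitted. The C1 and C11 libraries of LB did not overlap for 5 members that were higher and 7 that were lower in C1, where 28.6% of the 21585 genes with a mean bud CPM of at least 1 did not overlap. Since the rule bears on this count, nothing is read from the difference.

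The member with the smallest p in LB, named after its values were seen as are the other members given for LB, was Cula0000640. It had 11.4, 6.21 and 15.7 CPM in C1 LB, against 34.4, 26.1 and 39.8 CPM in C11 LB, with no overlap and a log2 fold change of -1.74 ± 0.38 (SE, with an edgeR adjusted p of 0.0640). Same-numbered LB libraries of the clones deviated together, and with the replicate number as a block it was the member called, with a value of -1.80 (adjusted p = 0.05 in edgeR after rounding, just under the threshold, and 0.00155 to 0.206 over its alternatives). The block left 528 calls over all genes, against 1040 without it. In AB its levels were 15.5, 11.6 and 5.45 CPM in C1, against 32.8, 6.99 and 100 CPM in C11, which overlap.

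DESeq2 called Cula0000640 and Cula0017706, Cula0023913 and Cula0035821, all lower in C1 LB. Cula0017706 had 4.09, 3.10 and 5.56 CPM in C1 LB, against 5.87, 10.9 and 12.2 CPM in C11 LB, and a difference of -1.30 ± 0.38 on the log2 scale (adjusted p = 0.126 in edgeR). Cula0023913 had 42.0, 24.96 and 60.6 CPM in C1 LB, against 81.8, 79.8 and 98.5 CPM in C11 LB, and one of -1.17 ± 0.33 (adjusted p = 0.118 in edgeR). Cula0035821, also 1 of the 5 lowest members, had 6.23, 5.98 and 7.41 CPM in C1 LB, against 11.7, 9.59 and 19.97 CPM in C11 LB. None of these overlapped between the clones. In the other direction, Cula0012528 had 42.5, 53.5 and 59.6 CPM in C1 LB, against 28.4, 30.0 and 27.4 CPM in C11 LB, with a difference of 0.72 ± 0.19 on the log2 scale (adjusted p = 0.107 in edgeR), which is less than a doubling. Cula0009709 had 17.5, 17.6 and 25.1 CPM in C1 LB, against 3.29, 13.5 and 4.19 CPM in C11 LB.

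C11 LB replicate 2 held the highest of the 3 C11 LB values for 79 members. Without that library edgeR called 7 members, all higher in C1, namely Cula0010395, Cula0001946, Cula0015596, Cula0012770, Cula0009709, Cula0023769 and Cula0031996, and the calls over all genes came to 1689, against 1040 with it. Without any 1 of the other LB libraries 0 members were called, and the calls over all genes came to 7 to 771, with 7, 9 and 7 without C1 LB replicates 1, 2 and 3, so the share of all genes called in LB rests on single libraries as well.

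In AB, 0 of 100 members were called by edgeR, where 4.55% of the 23999 genes tested were, and 0 by DESeq2, which called 3056 of 32628 genes. In edgeR, 0 members had an unadjusted p under 0.05, against 17.9% of all genes. That 0 rested on single libraries. It was 14 without C11 AB replicate 2, all lower in C1, against 21.5% of all genes. Without C1 AB replicate 1 it was 8, 7 of them lower, against 14.7%, and without C1 AB replicate 3 it was 4, all higher, against 15.9%. DESeq2 gave 5, against 18.3%. No member had C1 and C11 libraries of AB that did not overlap, against 24.5% of the 21585 genes. The median log2 fold change (C1 over C11) of the members was -0.37, with 28 of 100 above 0. Its sign rested on single libraries, since it was 0.26 without C11 AB replicate 3, 0.02 without C1 AB replicate 3 and -0.88 without C1 AB replicate 1. The largest difference was that of Cula0012660, named for it after the values were seen, with 6.26, 6.22 and 4.89 CPM in C1 AB, against 6.25, 2.63 and 139 CPM in C11 AB. In LB it had 6.04, 4.78 and 25.8 CPM in C1, against 5.73, 10.7 and 60.3 CPM in C11.

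**Figure D5:**
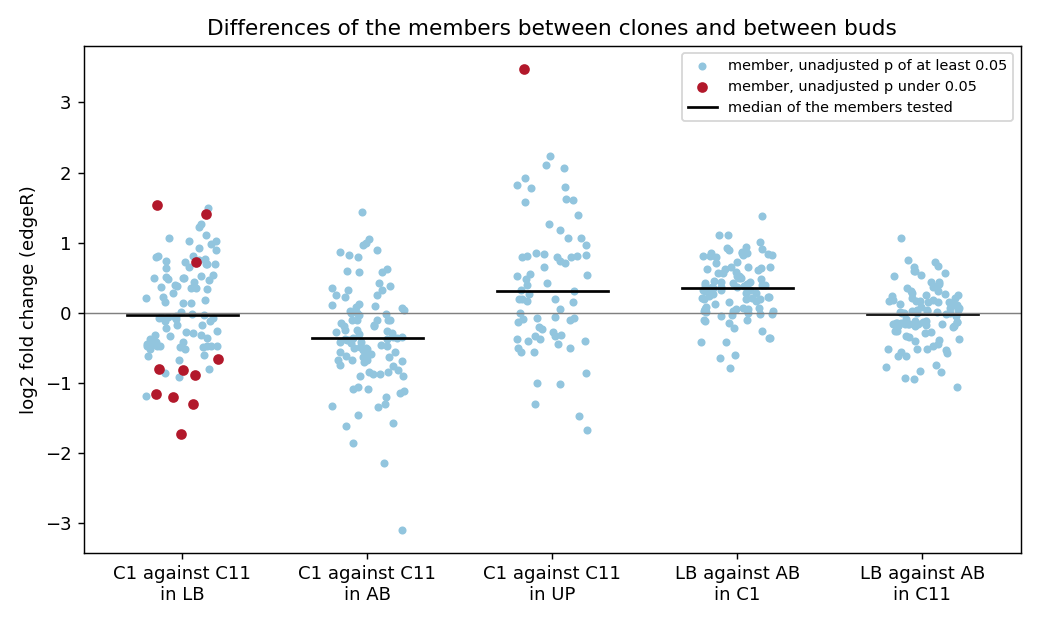
Log2 fold change (vertical, edgeR) of the members tested in each comparison, 1 point a member, with the median as a line. Members with an unadjusted p under 0.05 are the larger red points, 11 in LB and 1 in UP between the clones and 0 in the other comparisons shown, and no point passed the FDR threshold.

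In UP, 71 of 100 members passed the filter on low counts and 29 were not tested. Of the 71, 0 were called by edgeR, where 3.94% of 24167 genes were, and 1 had an unadjusted p under 0.05, against 19.8% of all genes. Without C11 UP replicate 2, 26 of 72 members had such a p, all higher in C1, against 23.6% of all genes. DESeq2 called 3643 of 32794 genes, among them 1 of the 97 members it tested. That gene and the one with the unadjusted p under 0.05 in edgeR were both Cula0012660, with 1.36, 0.634 and 0.655 CPM in C1 UP, against 0.0654 and 0.138 CPM in C11 UP replicates 1 and 2 and no count in replicate 3. Its log2 fold change was 3.48 ± 0.97 (adjusted p = 0.124 in edgeR), on 88 counts in all. The libraries did not overlap for 12 members higher in C1 and for 0 lower, where 30.1% of the 21585 genes did not overlap, 19.7% with C1 above. Among the 12 was *FATB1* (Cula0023747), with the values given above. The median log2 fold change of the 71 members was 0.31, but -0.04 without C11 UP replicate 3 and 1.48 without C11 UP replicate 2.

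The buds themselves were set against each other. Both stand on the same side of the rule, but it takes the lowest of all 12 bud libraries. It thus passes over genes that are low in LB or in AB, so the comparisons of LB with AB are not free of it. Small counts of members are therefore given as counts only. In C1, LB against AB gave 0 of 100 members called by edgeR or DESeq2, where edgeR called 0 of 23412 genes (0%), and 0 members had an unadjusted p under 0.05, against 4.95% of all genes. Without C1 AB replicate 1, 44 members had such a p, all higher in LB, against 7.24% of all genes, and without C1 AB replicate 2 it was 9, again all higher, against 7.85%. The median log2 fold change (LB over AB) of the members was 0.35, against 0.00 over all genes, with 82 of 100 above 0. It was 0.91 without C1 AB replicate 1, the highest AB library for 81 members, and 0.03 without C1 AB replicate 3, the lowest for 87. The libraries did not overlap for 3 members, all higher in LB (9.98% of the 21585 genes did not overlap). These, again named after the fact, were Cula0031996, with 96.2, 148 and 101 CPM in C1 LB, against 74.0, 40.2 and 14.0 CPM in C1 AB, Cula0015596, with 13.0, 18.3 and 12.8 CPM, against 7.41, 11.1 and 1.74 CPM, and NewGene_2452. Their log2 fold changes were 1.38, 1.10 and 0.66 (adjusted p = 0.949 in edgeR for each).

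In C11, LB against AB gave 0 of 100 members called by edgeR or DESeq2, where edgeR called 0 of 24247 genes (0%), and 0 members had an unadjusted p under 0.05, against 0.837% of all genes. Same-numbered LB and AB libraries of C11 deviated together. With the replicate number as a block, again 0 members had such a p in edgeR, against 5.15% of all genes. In the fits without the block, 4 members had such a p when C11 LB replicate 2 was left out, against 4.27% of all genes. When C11 AB replicate 2 was left out it was 5, against 0.623%, and in both fits all were lower in LB. When C11 AB replicate 3 was left out it was 5, all higher in LB, against 1.87%. The median log2 fold change (LB over AB) of the members was -0.02 and ran from -0.45 to 0.62 when any 1 library was omitted, and no member was without overlap (2.86% of the 21585 genes were). Whether the difference between the clones itself differed between LB and AB was tested as an interaction over the 12 bud libraries. The rule bears on this test as well. Here 0 of 100 members were called by edgeR or DESeq2, edgeR called 0 of 26049 genes (0%), and 0 members had an unadjusted p under 0.05, against 1.60% of all genes. Without C11 LB replicate 2 it was 6, against 4.52%. The median of the members for this difference, LB minus AB, was 0.44 on the log2 scale, but -0.27 without C11 AB replicate 3.

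The lipid lists from which the named members come, which the study chose on these libraries, gave 0 calls by edgeR between the clones in LB, AB and UP. Of all genes tested, edgeR called 4.27% in LB, 4.55% in AB and 3.94% in UP. At a looser FDR limit than the one used here, the study reports some lipid genes of its pink module as lower in C1 UP and LB. At an unadjusted p under 0.05, where 20.8% of all genes stood in LB, 17.9% in AB and 19.8% in UP, were 2 of 17 tested sphingolipid genes in LB, 0 of 17 in AB and 1 of 14 in UP. Glycerolipid metabolism had 0 of 16 in LB and AB and 0 of 15 in UP, and fatty acid elongation 0 of 15 in LB and AB and 0 of 12 in UP. Fatty acid biosynthesis had 1 of 10 in LB, 0 of 10 in AB and 0 of 9 in UP. Cutin, suberine and wax had 3 of 32 in LB, 0 of 32 in AB and 2 of 22 in UP. The 20 genes of highest degree in the study's network had 1 of 20 in LB, 0 of 20 in AB and 0 of 18 in UP. Over these lists together, DESeq2 called 1 gene in LB, 0 in AB and 1 in UP. The whole pink module, with 981 genes, had 0 edgeR calls in LB and AB and 1 in UP, where the called gene, NewGene_13752, is no member. DESeq2 called 2 of its genes higher and 4 lower in C1 LB, 0 in AB, and 6 higher and 6 lower in C1 UP. The joint fit called 6 higher and 3 lower in C1 UP. Without C11 LB replicate 2 edgeR called 4 in LB, all higher in C1, and without C11 UP replicate 3 it called 2 higher and 4 lower in C1 UP, while without any 1 of the other UP libraries it called 0 in UP.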

How the data were processed

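The authors aligned paired-end reads of poly-A RNA to the reference genome of the species with Hisat2 and deposited raw counts per gene for all 18 libraries, without normalization. How reads were assigned to genes, whether strand was used and what became of multi-mapped reads is not given in the sources used here. From these counts CPM was computed on column sums with Python 3.11.15 (pandas, numpy). Libraries held 24766529 to 32005160 counts, and TMM factors ran from 0.852 to 1.085. Each of the 6 comparisons was fitted on the libraries it compares in R 4.3.3 with edgeR 4.0.16 (filterByExpr, TMM, glmQLFit, glmQLFTest, Benjamini-Hochberg over all genes tested). SE is the absolute log2 fold change divided by the square root of F. DESeq2 1.42.0 was an alternative, as were RLE size factors, no filter, a CPM minimum of 1 in 3 libraries, a joint fit of the 18 libraries, the replicate number as a block and the omission of single libraries. For the rule, pseudocounts of 0.1 and 5, TMM-scaled CPM and means were tried.

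The replicate numbers were taken as a possible pairing where all 3 same-numbered pairs correlated at over 0.1 in their deviations from group means. This held for C1 and C11 in LB (0.267 to 0.415) and for LB and AB in C11 (0.486 to 0.748), and not in AB (-0.198 to 0.139), UP (-0.155 to 0.101) or for LB and AB in C1 (-0.291 to 0.262). Pairs with different numbers were not compared and what the numbers stand for is not given, so a pairing is not established. The p-values measure the spread between these libraries.

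The members and lists were chosen with earlier results of these data known. Named were members with a name in the study, the 15 highest and 5 lowest scores, the 5 genes just outside, members in the lipid lists, and called members, of which there were none. Others were named after their values were seen. Names are the study's, from matches to other species. No reference sequence was used here.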

Additional observations from a re-analysis of the deposited data

How the results depend on the processing

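Of the 100 members, 77 remained with a pseudocount of 0.1 in the score, 86 with 5, 95 with TMM-scaled CPM, 49 with means in place of extremes, and 78 to 100 with each library left out. The count of members called between the clones stayed at 0 in AB under all alternatives. In UP it was 1 with DESeq2. In LB it was 4 with DESeq2, 1 with the replicate number as a block, and 0 to 7 with each library left out (7 without C11 LB replicate 2). The lists of lipid and network genes gave 1 call with DESeq2 in UP, 1 with DESeq2 in LB and 0 to 1 in LB with each library left out (1 without C11 LB replicate 2). Between LB and AB, and for the interaction, no member was called under any alternative. The block changed no other call of a member. The calls over all genes were 3056 in AB, 3643 in UP and 3795 in LB with DESeq2, and 0, 0 and 528 with the block, against 1093, 951 and 1040 with edgeR without it. With each library left out they ran from 85 to 552 in AB, 0 to 2683 in UP and 7 to 1689 in LB. For LB against AB in C1, DESeq2 called 133 genes where edgeR called 0. The cause of these differences was not tested. With 24 members under 50 counts in some bud library and 40 under 100 counts over all UP libraries, the counts limit the precision of these members.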
